A study of Bos taurus with 6 samples.

Results

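The genes described here are 133 transcription regulators among the 2040 genes of a deposited table that compares longissimus dorsi of Angus and Chinese Simmental cattle. They were taken by annotation: 251 listed genes carried a Gene Ontology term for transcription factor activity or for regulation of transcription. Names of zinc finger, solute carrier, cytokine and receptor families were dropped by their prefix, which left 186 genes, and genes annotated to kinase activity, calcium binding or GTPase activation were dropped next, which left 151. Genes without reads in 1 breed (147 left) and 16 named genes (133 left) were dropped last. The tested tissue is the long muscle of the back, sampled at ribs 12 and 13 of cattle aged 18 months, with 3 RNA libraries of Angus, a beef breed, and 3 of Chinese Simmental. The study's title puts intramuscular fat content as its subject. Whether the 3 samples of each breed were separate animals is not stated in the labels, so p-values measure only the spread between these samples. Muscle RNA was taken in bulk, and a lower level can come from fewer cells of a type or from less RNA per cell, which cannot be told apart.

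Transcription factors bind DNA at short motifs and set which genes a cell transcribes, and they are grouped into families by the protein fold that touches DNA. Coregulators do not bind DNA themselves but are brought to it by such factors and change chromatin or the polymerase. In muscle tissue the RNA of such genes comes from fibres and also from fat, vessel and blood cells, and several families are known mainly from the immune system, where SPI1 and the C/EBP factors mark myeloid cells and PAX5 and its partners mark B cells.

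All 133 members passed the count filter and edgeR's quasi-likelihood test with Benjamini-Hochberg adjustment, as did 99.9% of the listed genes tested, since the authors had selected every gene in their table for differing between these libraries. The calls are thus a description of a selection and carry no independent evidence. They put 31 members higher in Angus and 102 of them higher in Chinese Simmental. Of the 1989 listed genes tested, 24.9% were called higher in Angus and 75% of them higher in Chinese Simmental, so the members' share of 76.7% higher in Chinese Simmental lay near that of the table. The median log2 fold change, Angus over Chinese Simmental, was -1.52 over the members and -1.57 over all listed genes. Values of the breeds did not overlap for 121 members (91.0%), against 90.3% of all listed genes. Among members higher in Angus all 31 were free of overlap, against 97.6% of all listed genes higher there. Among members higher in Chinese Simmental 90 of 102 (88.2%) were, against 87.9% of all listed genes of that direction. The 12 members with overlapping breeds were CITED2, TAL1, PRDM1, DACH1, NFKBIZ, CEBPB, MXD4, MSC, EAF1, KLF13, PMF1 and TXNIP. Without Chinese Simmental replicate 1 none of the 133 overlapped, but leaving out a library can only keep or lower the number that overlap. That number was not counted over all listed genes, so it is no trait of the members.

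Scaling decided the number of members called higher in Chinese Simmental. TMM factors computed over the listed genes alone moved all listed log2 fold changes toward Angus by a median of 1.35. With them 31 members were called toward Angus and 11 toward Chinese Simmental, and 53.4% of members kept a negative fold change. Over all listed genes 499 were called toward Angus and 261 toward Chinese Simmental with TMM factors. With TMM, RLE and upper quartile factors alike, 11 members were still called higher in Chinese Simmental, namely MXD1, EGR2, NFAM1, NFIL3, FOS, SOD2, IGF1R, NFE2, ETS2, HLX and NOD2. All 31 members higher in Angus were called under each of these scalings. These factors moved the listed fold changes toward Angus by medians of 1.32 to 1.35. That outcome thus had little room to differ, and it does not show the Angus calls to be sturdier. A further 29 of the 102 turned to higher in Angus under all 3 scalings and ARID5A, ELL and ARHGEF11 under 1 or 2 of them. Whether a member turned or kept its direction followed largely from the size of its log2 fold change with the authors' factors. Without Angus replicate 2 the calls higher in Chinese Simmental numbered 66 among the members and 1059 among all listed genes. With all libraries these numbers were 102 and 1492. On the authors' FPKM values (fragments scaled to gene length and library size), tested with limma on log2(FPKM + 1), 119 members were called, and ASPH, FOXS1, CMKLR1, TAL1, RAB7B, PRDM1, FOSB, ETV4, HOXD3, VDR, POU2F2, AFF1, MSC and LMO2 were not. Over all listed genes 1729 were called on that scale. That scale understates the change of low genes, and 33 members moved on it by over 1.5 times. The ratio of counts to FPKM differed between libraries, by an SD over 0.5 on the log2 scale, for MXD1, CMKLR1, KLF17, ETV4, ESR2, VDR, PAX9 and PAX8, and in Angus replicate 1 it ran from 2.21 for BRDT to 1719 for KLF13, so levels of different genes are not compared.

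The working description of these genes, transcription factors outside zinc finger families, held only in part. Of the members, 54 carried the transcription factor activity term and 79 only the regulation term. By families of DNA-binding domains, 65 members stood in such a family, with ID1, which keeps its partners off DNA, counted among them. A further 16 were coregulators or chromatin factors, and 52 stood in neither kind of list, among them receptors, adaptors and enzymes. A zinc finger domain stood in the deposited Pfam annotation of 17 members: EGR2, KLF9, KLF13, KLF15, KLF17, BCL6, BCL11A, PRDM1, ZFHX3, the nuclear receptors RARA, RARG, VDR and ESR2, and HLTF, IRF2BPL, SAP30 and MTA3. Among the 65 members of DNA-binding families 10 had their higher values in Angus and 55 (84.6%) in Chinese Simmental, against 75.0% of all listed genes. Of the 55, 14 turned to higher in Angus under at least 1 of the other scalings. Counts by direction in the families, lists and subgroups below are to be read against that 75.0%, and short lists of 1 direction say little.

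Libraries held 12010803 to 15699184 counts over the listed genes in Angus and 12799174 to 28883725 in Chinese Simmental, and these sums cover only the listed genes. Listed markers of blood cells had been selected for differing like every listed gene, and their lists were chosen with earlier results known. That they moved with breed was thus fixed beforehand. Of 12 markers each, 10 were listed for B cells, 8 for neutrophils and 9 for monocytes and macrophages. Of 8 natural killer and cytotoxic markers 4 were listed, and of 8 platelet and erythroid markers 1 was, all higher in Chinese Simmental. The summed normalised counts (counts divided by the authors' size factors) of 10 listed B cell markers, all higher in Angus, were 203868 to 281293 in Angus, against 53512 to 81366 in Chinese Simmental. For 8 listed neutrophil markers, all higher in Chinese Simmental, the sums were 57599 to 96968 in Angus and 621582 to 1095650 in Chinese Simmental. For 9 listed monocyte and macrophage markers, also all higher in Chinese Simmental, they were 14162 to 30642 in Angus and 182419 to 401041 in Chinese Simmental. Of 16 muscle fibre markers only NEB, TNNT3 and RYR1 were listed, and of 12 T cell markers none was, which says nothing of the level of a gene outside the table. In the accounts below the part that these blood cell markers have in a member's difference was not tested.

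**Figure D1:**
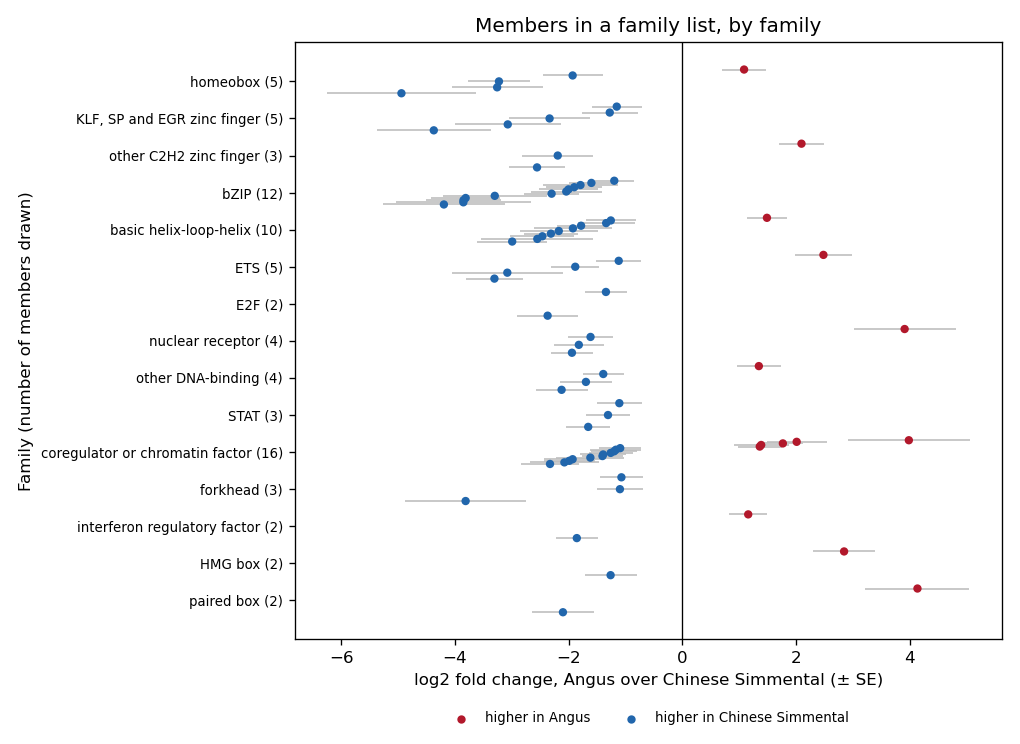
Log2 fold change (Angus over Chinese Simmental) with its standard error for each of 78 of the 81 members in a family list, 1 point per gene, families on the vertical axis. All 12 bZIP factors, 3 STAT factors and 5 KLF and EGR factors drawn lie left of 0 with the authors' size factors, where NFE2L2, STAT3, STAT5B, KLF9 and KLF13 turn with the 3 other scalings, and the largest positive values belong to low-count genes.

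Among the lists of regulators by role, that of myeloid regulators held the most members. Of 29 genes on the list of myeloid regulators 18 were in the table, all higher in Chinese Simmental, against 75.0% of all listed genes. Of these 18, 13 were members, among them SPI1, NFE2, NFIL3, BATF3, CREB5, CEBPB, CEBPE, EGR2, BCL6, MITF, TFEC and HLX. The median log2 fold change of these 13 was -2.46, against -1.88 for the 102 members and -1.94 for all listed genes higher in Chinese Simmental. Each kept its direction under every scaling tried. NFE2, NFIL3, EGR2 and HLX were called under all of them. The others, apart from BCL6 with upper quartile factors, were called only with the authors' size factors. SPI1, whose protein PU.1 is the master ETS factor of myeloid cells, had 19824, 11712 and 16281 normalised counts in Angus replicates 1 to 3, against 39946, 63382 and 73004 in Chinese Simmental replicates 1 to 3 (replicates are given in this order throughout). The breeds did not overlap, the lowest Chinese Simmental library standing above the highest Angus one, and the log2 fold change was -1.88 ± 0.42 (SE, adjusted p = 0.0056). NFE2, a bZIP factor known from megakaryocytes and erythroid cells, had 4244, 4835 and 8506 in Angus libraries, against 29562, 112991 and 104267 in Chinese Simmental libraries. Its Chinese Simmental replicate 1 was far below the other two yet above every Angus library, and the log2 fold change was -3.81 ± 0.61 (adjusted p = 0.00302).

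HLX, a homeobox factor of blood cell development, had 204, 299.7 and 559 in Angus libraries, against 1700.3, 3763 and 4474 in Chinese Simmental libraries, a log2 fold change of -3.22 ± 0.55 (adjusted p = 0.00341). MITF and TFEC are related bHLH factors, MITF known from melanocytes, mast cells and osteoclasts and TFEC from macrophages. MITF had 281, 66.2 and 229 in Angus libraries, against 1172, 834 and 1175 in Chinese Simmental libraries (log2 fold change -2.46 ± 0.56), and TFEC had 235, 159 and 279, against 1556, 645 and 1135 (-2.31 ± 0.48). Both had Angus replicate 2 and Chinese Simmental replicate 2 as the lowest of their breed. CEBPE, which acts late in granulocyte differentiation, was low, at 62.5, 35.0 and 27.6 in Angus libraries, against 91.5, 78.8 and 264 in Chinese Simmental libraries. Its call (-1.79 ± 0.67) was lost without Angus replicate 2 (-1.68) or 3 (-1.56), and without Chinese Simmental replicate 3 (-1.03).

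**Figure D2:**
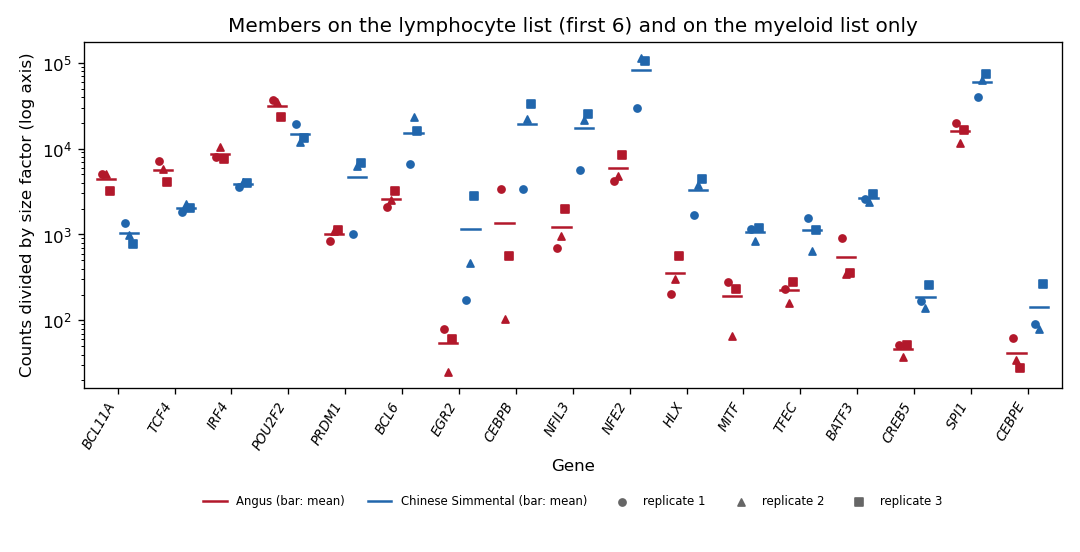
Normalised counts (log axis) of the 6 members on the lymphocyte list, then of 11 on the myeloid list only, with 1 symbol per replicate and a bar at the breed mean, Angus left of Chinese Simmental. BCL11A, TCF4, IRF4 and POU2F2 have all 3 Angus libraries above all 3 Chinese Simmental libraries, while PRDM1 and CEBPB are the genes with overlap.

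The bZIP family, whose members bind DNA as dimers through a leucine zipper, had 13 members, all higher in Chinese Simmental, with NFE2L2 turned to higher in Angus under each of the other 3 scalings. The table held 17 genes of this family, likewise all higher in Chinese Simmental, against 75.0% of all listed genes. FOS, the immediate early partner of JUN in AP-1, had 5093, 662 and 1899 normalised counts in Angus libraries, against 9359, 16933 and 113815 in Chinese Simmental libraries. Chinese Simmental replicate 3 held most of that gene's counts, and the log2 fold change of -4.19 ± 1.07 (adjusted p = 0.00809) was -2.36 without it and -5.19 without Angus replicate 1. FOSB, a FOS relative, had 1461, 864 and 818 in Angus libraries, against 1775, 3338 and 25824 in Chinese Simmental libraries, and the log2 fold change of -3.30 ± 0.91 was -1.29 without Chinese Simmental replicate 3 and -2.31 with the replicate block. JUNB had the same order of libraries as FOS, with 12288, 4924 and 9869.8 in Angus, against 14329.8, 26803 and 70315 in Chinese Simmental. The JUNB log2 fold change of -2.04 ± 0.62 was -1.19, and not past the threshold, without Chinese Simmental replicate 3. JUN was less uneven, with 10745, 5123 and 8583 in Angus libraries, against 18268, 23385 and 49637 in Chinese Simmental libraries (-1.90 ± 0.50, adjusted p = 0.00878). The highest Chinese Simmental library was replicate 3 for all 4 of these AP-1 genes.

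CEBPB, a C/EBP factor of both myeloid cells and adipocyte differentiation, had 3370.4, 104 and 569 normalised counts in Angus libraries, against 3362, 22242 and 32783 in Chinese Simmental libraries. Angus replicate 1 and Chinese Simmental replicate 1 were at the same level, so the breeds overlapped, and the log2 fold change of -3.85 ± 1.19 was -5.85 without Angus replicate 1, -3.25 without Chinese Simmental replicate 3 and -5.13 with the replicate number as a block. NFIL3, a bZIP repressor that serves natural killer cell development and the clock, had 701, 959 and 1973 in Angus libraries, against 5561, 21218 and 25567 in Chinese Simmental libraries. Even its lowest Chinese Simmental library exceeded its highest Angus library, with a log2 fold change of -3.85 ± 0.66 (adjusted p = 0.00348). BATF3, needed in mice for cross-presenting dendritic cells, had 917, 345 and 360.3 in Angus libraries, against 2615, 2386 and 2984 in Chinese Simmental libraries. Its Chinese Simmental libraries lay close together, and the log2 fold change of -2.30 ± 0.48 was -2.92 without Angus replicate 1. BACH1, a haem-sensitive repressor, averaged 1075 ± 235 in Angus and 3257 ± 1029 in Chinese Simmental (SD, n = 3 each; log2 fold change -1.60 ± 0.40), and CREB5, which binds cyclic AMP response elements, 46.7 ± 7.97 in Angus and 188 ± 60.04 in Chinese Simmental (-2.002 ± 0.52). NFE2L2, the activator of the oxidative stress response, averaged 2256 ± 194 in Angus and 5169 ± 1218 in Chinese Simmental. That difference, -1.20 ± 0.34 on the log2 scale, was -1.13, and not past the threshold, without Angus replicate 2, and turned to higher in Angus under each of the 3 other scalings.

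**Figure D3:**
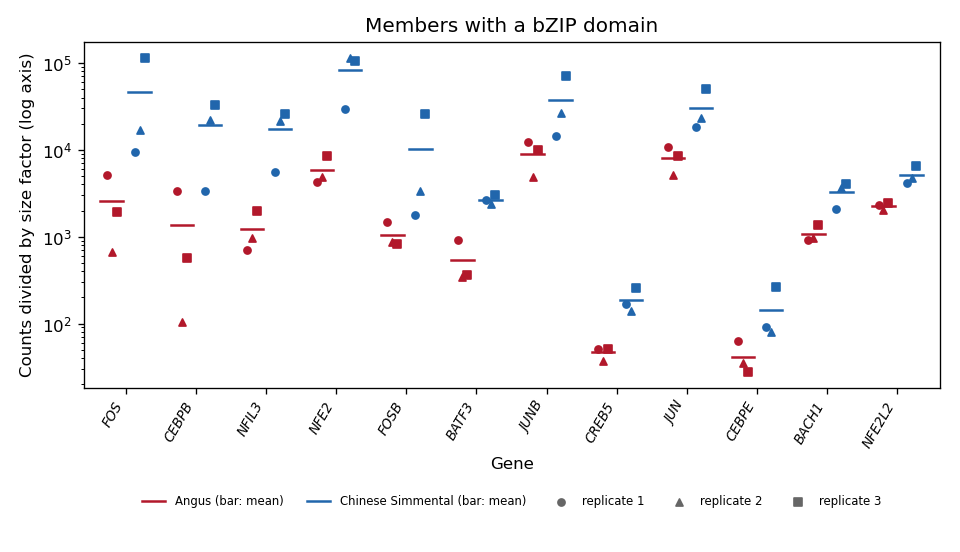
Normalised counts (log axis) of 12 bZIP members, with 1 symbol per replicate and a bar at the breed mean, Angus left of Chinese Simmental. The square of Chinese Simmental replicate 3 stands highest for FOS, FOSB, JUNB and JUN, and the breeds overlap for CEBPB alone of the 12; NFE2L2 turns to higher in Angus with the 3 other scalings.

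Lymphocyte regulators went the other way in part. Of 39 genes on that list 11 were in the table, 9 higher in Angus and 2 in Chinese Simmental, and 6 were members: BCL11A, TCF4, IRF4 and POU2F2, higher in Angus, and BCL6 and PRDM1, higher in Chinese Simmental. BCL11A, a zinc finger repressor needed for B lymphocyte development, had 5013, 5088 and 3233 normalised counts in Angus libraries, against 1356, 979 and 779.7 in Chinese Simmental libraries. Every Angus library was above every Chinese Simmental one, and the log2 fold change was 2.10 ± 0.39 (adjusted p = 0.00372). TCF4, the E protein of B cells and plasmacytoid dendritic cells, had 7195, 5826 and 4085 in Angus libraries, against 1809.6, 2233 and 2047 in Chinese Simmental libraries (1.49 ± 0.36, adjusted p = 0.00675). For both genes Angus replicate 3 was the lowest library of its breed, as it was for the summed B cell markers. It was the lowest Angus library for 58.1% of members higher in Angus too, and for 51.7% of all listed genes higher there. The Chinese Simmental libraries of TCF4 differed little.

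IRF4, a factor of B cell activation and plasma cells, had 7903, 10412 and 7629 in Angus libraries, against 3557, 4076 and 3973 in Chinese Simmental libraries. Its log2 fold change of 1.16 ± 0.33 (adjusted p = 0.012) was 1.01, and not past the threshold, without Angus replicate 2. POU2F2, the octamer-binding OCT2 of B cells, had 36913, 34405 and 23331 in Angus libraries, against 19406, 11938 and 13190.1 in Chinese Simmental libraries. Its call (1.09 ± 0.39) was lost without Angus replicate 1 (0.96) or 2 (1.02), and without Chinese Simmental replicate 2 (0.95) or 3 (1.01). BCL6, the repressor of germinal centre B cells that monocytes and granulocytes also express, stood on both lists, with 2077, 2498 and 3206 in Angus libraries, against 6603, 23021 and 16103 in Chinese Simmental libraries. No library overlapped, and the log2 fold change was -2.55 ± 0.50 (adjusted p = 0.0041). PRDM1, which encodes the plasma cell repressor Blimp-1, had 849.9, 1101 and 1112 in Angus libraries, against 1017, 6217 and 6754 in Chinese Simmental libraries. Chinese Simmental replicate 1 lay within the Angus range while the other two lay far above it, and the log2 fold change was -2.19 ± 0.62.

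STAT factors carry cytokine signals from the cell membrane to DNA, and interferon regulatory factors act beside them. STAT2, STAT3 and STAT5B were higher in Chinese Simmental, where STAT3 and STAT5B turned to higher in Angus under each of the other 3 scalings and STAT2 did not. STAT2, the subunit particular to the type I interferon complex, had 4964, 4683 and 5532 normalised counts in Angus libraries, against 9945, 19746 and 18107 in Chinese Simmental libraries (log2 fold change -1.65 ± 0.39, adjusted p = 0.00634). STAT3 averaged 9095 ± 1095 in Angus and 22495 ± 7494 in Chinese Simmental (-1.31 ± 0.39), and the call went without Angus replicate 2 (-1.24). STAT5B, which mediates growth hormone signals, averaged 5929.9 ± 923 in Angus and 12772 ± 4727 in Chinese Simmental (-1.11 ± 0.40). Its call was lost without Angus replicate 1 (-1.04) or 2 (-1.04), and without Chinese Simmental replicate 2 (-0.87) or 3 (-1.02).

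IRF1, an interferon-induced activator, was among the most even members, with 19288, 20301 and 18953 normalised counts in Angus libraries, against 65641, 76584 and 69569.9 in Chinese Simmental libraries. The gap between breeds was many times the spread within them, the log2 fold change was -1.86 ± 0.37 (adjusted p = 0.00418), and under the other 3 scalings the direction held without a call (-0.53 with TMM factors). IRF1 and STAT2, both on the interferon list, thus kept their direction under each scaling, STAT2 likewise without a call under the other 3 (-0.28 with TMM factors). On the NF-kB list both members were coregulators. BCL3, an atypical inhibitor that can also activate, averaged 3541 ± 628 in Angus and 13485 ± 7543 in Chinese Simmental (-1.93 ± 0.50). NFKBIZ, another nuclear inhibitor protein, averaged 1487 ± 292 in Angus and 3341 ± 1527 in Chinese Simmental, with overlapping breeds and a log2 fold change of -1.17 ± 0.45 that turned to higher in Angus under the other 3 scalings. Its call was lost without any 1 of Angus replicate 1 (-1.03), 2 (-1.18) or 3 (-1.31) and Chinese Simmental replicate 2 (-1.02) or 3 (-0.91).

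ETS factors bind a purine-rich core motif, and 4 of their 5 members were higher in Chinese Simmental, where ETV6 turned under the other 3 scalings. ETS2, which acts downstream of MAP kinase signals, had 309.8, 204 and 411 normalised counts in Angus libraries, against 1597, 3274 and 4274 in Chinese Simmental libraries. It had the smallest adjusted p of all members (0.00248), with a log2 fold change of -3.30 ± 0.50 and no overlap. ETV6, a repressor needed for bone marrow blood formation, averaged 1365 ± 204 in Angus and 2963 ± 1046 in Chinese Simmental (-1.12 ± 0.39), and the call went without Angus replicate 1 (-1.11), Angus replicate 2 (-1.02) or Chinese Simmental replicate 2 (-0.86). The fifth, SPDEF, an ETS factor of secretory epithelium, was higher in Angus, with 6143, 2189 and 2201 in Angus libraries, against 798, 529 and 556 in Chinese Simmental libraries. Angus replicate 1 stood apart from the other two, and the log2 fold change of 2.48 ± 0.51 was 1.81 without it.

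Basic helix-loop-helix factors, most of which bind the E box as dimers, had 10 members. Of these 9 were higher in Chinese Simmental, where TAL1 and MXD4 turned under the other 3 scalings, and TCF4 was higher in Angus. MXD1, a partner of MAX that opposes MYC, had 2115, 4557 and 5726 normalised counts in Angus libraries, against 10999.7, 47557 and 40072 in Chinese Simmental libraries (log2 fold change -2.99 ± 0.62, adjusted p = 0.00452). Replicate 1 was the lowest library in both breeds, and no library overlapped. MLXIP, the glucose-responsive MondoA, averaged 4689.9 ± 1433 in Angus and 16109 ± 6121 in Chinese Simmental (-1.78 ± 0.43). MXD4, another MAX partner, averaged 12267 ± 2709 in Angus and 31024 ± 18318 in Chinese Simmental with overlap (-1.34 ± 0.50), and lost its call without Angus replicate 2 (-1.19) or 3 (-1.34) or Chinese Simmental replicate 2 (-1.38) or 3 (-0.81). TAL1, a factor of erythroid and megakaryocyte cells, averaged 3916 ± 1509 in Angus and 9359 ± 3526 in Chinese Simmental with overlap (-1.26 ± 0.44), and lost its call without the same 4 libraries (-1.13, -1.08, -1.11 and -1.07).

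ID1, which binds bHLH factors and keeps them off DNA, had 135, 30.0 and 43.3 in Angus libraries, against 412, 166 and 217 in Chinese Simmental libraries. Replicate 1 was its highest library in both breeds. The log2 fold change of -1.92 ± 0.68 was -2.85 without Angus replicate 1, and was not past the threshold without Angus replicate 2 (-1.57) or 3 (-1.67) or Chinese Simmental replicate 1 (-1.45). ASCL2 averaged 27.2 ± 15.8 in Angus and 124 ± 50.2 in Chinese Simmental (-2.17 ± 0.68), and the call went without Angus replicate 2 (-1.79). MSC, the one member on the list of muscle regulators, encodes musculin, a repressor that opposes the myogenic bHLH factors. It was low and uneven, with 16.3, 13.7 and 26.6 in Angus libraries, against 10.5, 66.0 and 257 in Chinese Simmental libraries. Chinese Simmental replicate 1 lay below every Angus library, and the log2 fold change of -2.55 ± 0.99 was -1.77, and not past the threshold, with the replicate block. Its call was also lost without Angus replicate 1 (-2.45), 2 (-2.37) or 3 (-2.88) and without Chinese Simmental replicate 3 (-1.02).

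All 5 members of the KLF and EGR family, zinc finger factors of GC-rich motifs, were higher in Chinese Simmental, where KLF9 and KLF13 turned to higher in Angus under the other 3 scalings. EGR2, an immediate early gene also known from myelination, had 79.6, 25.0 and 60.05 normalised counts in Angus libraries, against 175, 466 and 2790.4 in Chinese Simmental libraries. As with FOS, Chinese Simmental replicate 3 held most of the counts, and the log2 fold change of -4.37 ± 1.01 (adjusted p = 0.00613) was -2.54 without it and -3.71 with the replicate block. KLF15, a factor of glucose and amino acid metabolism that also serves adipogenesis, had 138, 17.5 and 93.5 in Angus libraries, against 336, 305 and 619 in Chinese Simmental libraries. Its call (-2.33 ± 0.71) was lost without Chinese Simmental replicate 3 (-1.94). KLF13 averaged 10324 ± 3895 in Angus and 22953 ± 8099.8 in Chinese Simmental, with overlap between Angus replicate 3 and Chinese Simmental replicate 1 (-1.15 ± 0.44), and the call went without Angus replicate 1 (-0.99) or 2 (-1.02) or Chinese Simmental replicate 2 (-1.08) or 3 (-0.93). KLF9 averaged 136 ± 53.8 in Angus and 329.7 ± 85.5 in Chinese Simmental (-1.28 ± 0.49), and lost its call without the same 4 libraries (-1.09, -1.15, -1.14 and -1.18).

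Adipogenesis regulators, a list of 30, had 10 genes in the table, 1 higher in Angus and 9 in Chinese Simmental. The 4 members among them were CEBPB, KLF15, STAT5B and TLE3, all higher in Chinese Simmental, with STAT5B and TLE3 turned to higher in Angus under the other 3 scalings. TLE3, a Groucho-type corepressor of the Wnt pathway, averaged 14708 ± 888 in Angus and 33735 ± 11933 in Chinese Simmental (-1.20 ± 0.40). Its call was lost without Angus replicate 1 (-1.18), 2 (-1.17) or 3 (-1.25) or Chinese Simmental replicate 2 (-0.99). Of 10 adipocyte markers 3 were listed, and their summed normalised counts were 21304 to 47010 in Angus, against 141259 to 261553 in Chinese Simmental. CFD, which encodes adipsin and which monocytes also express, held most of these counts in every library.

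Nuclear receptors are factors switched by small ligands such as retinoic acid and vitamin D. RARG, a retinoic acid receptor, had 2353, 2126 and 2018 normalised counts in Angus libraries, against 5714, 8045 and 11179 in Chinese Simmental libraries (log2 fold change -1.94 ± 0.38, adjusted p = 0.00402). RARA, its relative, had 9603, 10313 and 10916 in Angus libraries, against 19536, 35590.0 and 39230.3 in Chinese Simmental libraries (-1.61 ± 0.40, adjusted p = 0.0071). For both receptors the Angus libraries lay close together and the Chinese Simmental libraries had replicate 1 as the lowest and replicate 3 as the highest. VDR, the vitamin D receptor, averaged 140.1 ± 29.5 in Angus and 495 ± 82.0 in Chinese Simmental (-1.82 ± 0.43). The 3 receptors kept their direction under the other 3 scalings but were not called there, with log2 fold changes with TMM factors of -0.54 for RARG, -0.22 for RARA and -0.48 for VDR.

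A few members rested on few reads, and raw counts are given for them. ESR2, oestrogen receptor beta, had 24, 16 and 24 reads in Angus libraries, against 2, 2 and 0 in Chinese Simmental libraries (log2 fold change 3.91 ± 0.90). PAX9, a paired box factor of the pharyngeal pouches and teeth, had 49, 19 and 43 in Angus, against 0, 2 and 4 in Chinese Simmental (4.14 ± 0.92, and 5.06 without Chinese Simmental replicate 3). BRDT, a bromodomain protein of the testis, had 33, 16 and 18 in Angus, against 0, 4 and 0 in Chinese Simmental (3.99 ± 1.07). In SCGB1A1, a secretoglobin of airway cells and no transcription factor, the counts were 124, 49 and 37 in Angus, against 0, 8 and 0 in Chinese Simmental (4.69 ± 1.17). In BRDT and SCGB1A1 every Chinese Simmental read came from replicate 2, and without it the fitted values were 7.46 and 9.08, which depend on the prior count and are no bound.

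Toward Chinese Simmental, HOXD3, a homeobox gene of body patterning, had 0, 8 and 0 reads in Angus libraries, against 40, 68 and 189 in Chinese Simmental libraries. The HOXD3 log2 fold change of -4.94 ± 1.31 was -4.29 without Angus replicate 1, -4.32 without Angus replicate 3 and -4.06 without Chinese Simmental replicate 3. Without Angus replicate 2 both Angus libraries were at 0, where a fitted value depends on the prior count and none is given. FOXQ1, a forkhead factor, had 4, 0 and 0 in Angus, against 14, 19 and 27 in Chinese Simmental (-3.81 ± 1.06). All Angus reads of FOXQ1 came from replicate 1, so the same holds without it. ETV4, an ETS factor, had 4, 0 and 6 in Angus, against 10, 34 and 44 in Chinese Simmental (-3.08 ± 0.97), which was -3.82 without Angus replicate 3 and -2.65, past the threshold no longer, without Chinese Simmental replicate 3. KLF17 had 2, 8 and 2 in Angus, against 12, 67 and 39 in Chinese Simmental (-3.07 ± 0.93), which was -4.26 without Angus replicate 2 and -2.70, past the threshold no longer, without Angus replicate 3. Even numbers prevailed among low deposited counts: of 1489 values from 1 to 50 in all 6 libraries 923 (62.0%) were even, against 49.8% of larger values. How reads were counted is not given in the sources used here.

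Further homeobox, paired box and forkhead members were better covered. MEIS3, a homeobox cofactor of HOX proteins, had 18.0, 19.98 and 5.91 normalised counts in Angus libraries, against 39.96, 209.9 and 171 in Chinese Simmental libraries (log2 fold change -3.26 ± 0.80). PAX8, a paired box factor of thyroid and kidney, had 114, 165 and 70.9 in Angus libraries, against 377, 340.0 and 779.7 in Chinese Simmental libraries (-2.10 ± 0.54). Neither overlapped between breeds. FOXO3, a forkhead factor held in the cytoplasm by insulin signals, averaged 3066 ± 423 in Angus and 6439 ± 2204 in Chinese Simmental (-1.07 ± 0.38), and turned to higher in Angus under the other 3 scalings. Its call was lost without Angus replicate 2 (-0.97) or 3 (-1.07) or Chinese Simmental replicate 3 (-0.80). FOXS1 had the same counts as a provisional locus name, averaged 793 ± 58.6 in Angus and 1696 ± 672 in Chinese Simmental (-1.10 ± 0.41), and turned likewise. It lost its call without any 1 Angus library (-1.06, -1.07 and -1.16) or without Chinese Simmental replicate 1 (-0.73). Both E2F factors of the cell cycle were higher in Chinese Simmental: E2F3 had 438, 249 and 336 in Angus libraries, against 694, 2667 and 1923 in Chinese Simmental libraries (-2.37 ± 0.54), and E2F2 averaged 2691 ± 224 in Angus and 6827 ± 2041 in Chinese Simmental (-1.34 ± 0.37), turning to higher in Angus under the other 3 scalings.

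Among the remaining DNA-binding members SOX5, an HMG box factor of cartilage and neurons, had 1693, 696 and 643 normalised counts in Angus libraries, against 147, 181 and 93.2 in Chinese Simmental libraries. Each Angus library exceeded each Chinese Simmental library more than 3-fold, and the log2 fold change of 2.85 ± 0.54 (adjusted p = 0.00387) was 2.25 without Angus replicate 1. HMGB2, a chromatin-bending HMG protein, averaged 14423 ± 942 in Angus and 34556 ± 19373 in Chinese Simmental (-1.26 ± 0.46), and turned to higher in Angus under the other 3 scalings. Its call was lost without any 1 Angus library (-1.23, -1.32 and -1.23) or without Chinese Simmental replicate 3 (-0.72). DNMT3B, a de novo DNA methyltransferase, had 2777, 4039 and 3569 in Angus libraries, against 1625, 1553 and 903 in Chinese Simmental libraries (1.35 ± 0.38, adjusted p = 0.0117). RFX2, known from cilium genes, averaged 273 ± 95.0 in Angus and 1189.6 ± 340.0 in Chinese Simmental (-2.12 ± 0.46). ARID3A, which binds AT-rich DNA of the immunoglobulin heavy chain locus, averaged 1185 ± 490.2 in Angus and 3839 ± 1471 in Chinese Simmental (-1.69 ± 0.46). ARID5A, of the same domain family, averaged 4480.2 ± 343 in Angus and 11739 ± 3319 in Chinese Simmental (-1.39 ± 0.36), with a value near 0 and of the other sign under RLE factors.

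**Figure D4:**
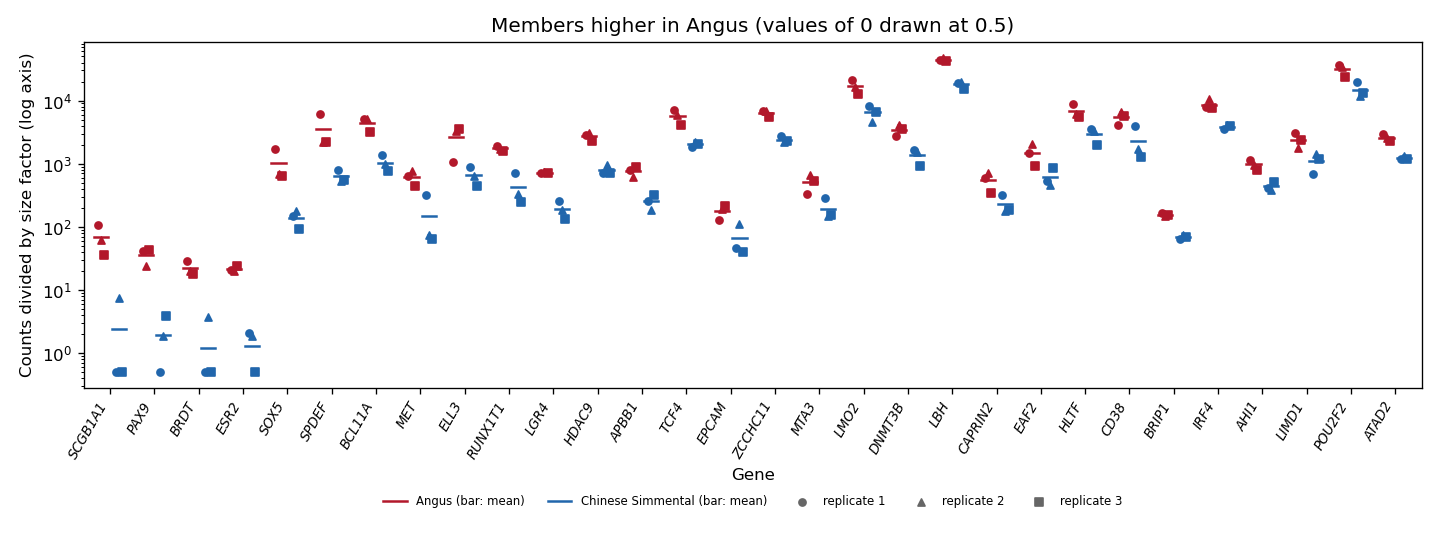
Normalised counts (log axis, values of 0 drawn at 0.5) of 30 members higher in Angus, in order of log2 fold change, with 1 symbol per replicate and a bar at the breed mean, Angus left of Chinese Simmental. In all 30 the 3 Angus symbols lie above the 3 Chinese Simmental symbols, closest for CD38, CAPRIN2 and EAF2, and the 4 leftmost genes average under 100 normalised counts.

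Coregulators and chromatin factors had 16 members, 5 higher in Angus and 11 in Chinese Simmental, of which IRF2BPL, ELL, NFKBIZ, AFF1 and TLE3 turned to higher in Angus under at least 1 of the other scalings. HDAC9, a class IIa histone deacetylase that restrains muscle genes in mice, had 2807, 3013 and 2288 normalised counts in Angus libraries, against 703, 949 and 724 in Chinese Simmental libraries. No value came near the other breed, and the log2 fold change was 1.77 ± 0.36 (adjusted p = 0.00448). HDAC4, of the same class, went the other way, with 2019.8, 1283 and 1483 in Angus libraries, against 3695, 5064 and 3901 in Chinese Simmental libraries (-1.40 ± 0.36, adjusted p = 0.00822). LMO2, a bridging protein of blood cell factor complexes that is high in germinal centre B cells, had 20919.9, 16657 and 12486 in Angus libraries, against 8333, 4568 and 6556 in Chinese Simmental libraries (1.36 ± 0.39). MTA3, a subunit of the NuRD complex, averaged 509 ± 163 in Angus and 194 ± 77.6 in Chinese Simmental (1.39 ± 0.48), and lost its call without Angus replicate 2 (1.17) or 3 (1.34) or Chinese Simmental replicate 2 (1.22) or 3 (1.24). ELL3, an elongation factor of the polymerase, had 1072, 3313 and 3582 in Angus libraries, against 891, 644 and 439 in Chinese Simmental libraries (2.01 ± 0.53), so that Angus replicate 1 lay just above the highest Chinese Simmental library.

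KDM6B, the demethylase that removes the Polycomb mark H3K27me3 and is induced in activated macrophages, had 4569, 3722 and 6003 normalised counts in Angus libraries, against 9771, 30577 and 31359 in Chinese Simmental libraries (log2 fold change -2.33 ± 0.50, adjusted p = 0.00502). It was the one gene of 27 on the Polycomb list found in the table. CTBP2, a corepressor, had 2141, 904 and 1545 in Angus libraries, against 5645, 4031 and 8526 in Chinese Simmental libraries (-1.99 ± 0.45, adjusted p = 0.00589). CITED2, which competes with the hypoxia factor HIF1A for its coactivator, had 3051, 3625 and 5036 in Angus libraries, against 4057, 19062 and 26191 in Chinese Simmental libraries. Its Chinese Simmental replicate 1 lay within the Angus range (-2.07 ± 0.61). TXNIP, an arrestin that binds thioredoxin and curbs glucose uptake, had 44132, 84963 and 87136 in Angus libraries, against 77476, 242910.0 and 342777 in Chinese Simmental libraries, with the same overlap. Its call (-1.62 ± 0.60) was lost without Angus replicate 1 (-1.36), 2 (-1.75) or 3 (-1.78) or Chinese Simmental replicate 2 (-1.54) or 3 (-1.15).

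Beyond the family lists stood 52 members, 16 higher in Angus and 36 in Chinese Simmental (69.2%), many of them signalling proteins that carry a transcription term because they act on it from afar. All 5 innate sensors and adaptors were higher in Chinese Simmental, where TNIP2, SLA2 and TIRAP turned under the other 3 scalings. NOD2, a sensor of bacterial cell wall fragments, had 592, 469.6 and 896 normalised counts in Angus libraries, against 3052, 4742 and 5756 in Chinese Simmental libraries (log2 fold change -2.79 ± 0.43, adjusted p = 0.00267). MYD88, the adaptor of Toll-like receptors, had 8454, 9878 and 12197 in Angus libraries, against 19650.4, 52424 and 51941 in Chinese Simmental libraries (-2.02 ± 0.47, adjusted p = 0.00624). Among 9 receptors and ligands 4 stood higher in Angus and 5 of them in Chinese Simmental. NFAM1, an immune receptor with an activation motif, had 1443, 1404 and 2588 in Angus libraries, against 11122, 12689 and 33963 in Chinese Simmental libraries (-3.41 ± 0.55), and -2.72 without Chinese Simmental replicate 3. OSM, the cytokine oncostatin M, averaged 251 ± 18.4 in Angus and 1733 ± 1154 in Chinese Simmental (-2.79 ± 0.59), and IGF1R, the receptor of insulin-like growth factor 1, 194 ± 75.7 in Angus and 1225 ± 427 in Chinese Simmental (-2.66 ± 0.49). SEMA4D, a semaphorin of immune cells, averaged 11194 ± 4770.3 in Angus and 32114 ± 8072 in Chinese Simmental (-1.52 ± 0.43).

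The 4 receptors higher in Angus were LGR4, MET, CD38 and EPCAM. LGR4, a receptor for R-spondins that amplifies Wnt signals, had 700.1, 732 and 709.8 normalised counts in Angus libraries, against 258, 185 and 133 in Chinese Simmental libraries. Its Angus libraries were the least variable of the members named here, and the log2 fold change was 1.89 ± 0.43 (adjusted p = 0.00589). MET, the hepatocyte growth factor receptor, which acts on muscle satellite cells, had 629.9, 769 and 437 in Angus libraries, against 314, 74.2 and 63.1 in Chinese Simmental libraries. Chinese Simmental replicate 1 stood well above the other two, and the log2 fold change of 2.02 ± 0.66 was 3.15 without it, and not past the threshold without Chinese Simmental replicate 2 (1.70) or 3 (1.66). CD38, an NAD-consuming surface enzyme of B and plasma cells, had 4169.8, 6509 and 5614 in Angus libraries, against 3983, 1711 and 1264 in Chinese Simmental libraries. Its log2 fold change of 1.23 ± 0.47 was 1.87 without Chinese Simmental replicate 1, and was not past the threshold without Angus replicate 2 (1.08) or 3 (1.203) or Chinese Simmental replicate 2 (1.05) or 3 (0.93). EPCAM, an epithelial adhesion protein, averaged 180.0 ± 46.8 in Angus and 65.7 ± 39.3 in Chinese Simmental (1.45 ± 0.58), which was 2.06 without Chinese Simmental replicate 2. Its call was lost without Angus replicate 2 (1.39) or 3 (1.29) or Chinese Simmental replicate 1 (1.25) or 3 (1.19).

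The 5 members outside the families that were sorted as enzymes were higher in Chinese Simmental, where PRDX5, ASPH and LPIN2 turned under the other 3 scalings. That sorting was made after values were seen. Other enzymes were placed in other subgroups, and of these CD38, ZCCHC11, BRIP1 and ATAD2 were higher in Angus. SOD2, the mitochondrial superoxide dismutase, had 2348, 4746 and 7557 normalised counts in Angus libraries, against 20400.1, 46661 and 39660.5 in Chinese Simmental libraries (log2 fold change -2.86 ± 0.54, adjusted p = 0.00383). ACOD1, which makes itaconate in activated macrophages, had 1321, 597 and 1219.7 in Angus libraries, against 4579, 3268 and 4386 in Chinese Simmental libraries (-1.96 ± 0.42, adjusted p = 0.00472). Among 10 proteins of traffic, small GTPases and scaffolds, 2 (LIMD1 and AHI1) stood higher in Angus and 8 of them in Chinese Simmental, of which ARRB2, PICALM, CCPG1 and ARHGEF11 turned under at least 1 other scaling. RHOG, a small GTPase of the cytoskeleton, averaged 6848 ± 583 in Angus and 17746 ± 4087 in Chinese Simmental (-1.37 ± 0.36). ARRB2, an arrestin of G protein-coupled receptors, averaged 9323 ± 725 in Angus and 23550.3 ± 9152 in Chinese Simmental (-1.34 ± 0.39), and the call went without Angus replicate 2 (-1.27). PICALM, a clathrin assembly protein, averaged 16025 ± 3399 in Angus and 35884 ± 13071 in Chinese Simmental (-1.16 ± 0.42), and lost its call without Angus replicate 1 (-1.18) or 2 (-1.01) or Chinese Simmental replicate 3 (-0.87). RAB7B, a lysosomal GTPase, had 290.1, 97.4 and 151 in Angus libraries, against 1488, 335 and 369 in Chinese Simmental libraries. Its log2 fold change of -2.02 ± 0.69 was -0.97, and not past the threshold, without Chinese Simmental replicate 1, and its call was also lost without Angus replicate 2 (-1.73) or 3 (-1.91).

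Nuclear proteins outside the family lists had 18 members, 7 higher in Angus and 11 in Chinese Simmental, where AKIRIN2 turned under the other 3 scalings. RUNX1T1, a corepressor known from a leukaemia fusion, had 1940.2, 1678 and 1611 normalised counts in Angus libraries, against 721, 332 and 248 in Chinese Simmental libraries (log2 fold change 2.01 ± 0.48, adjusted p = 0.00668). APBB1, an adaptor of the amyloid precursor protein that enters the nucleus, had 793, 609 and 879 in Angus libraries, against 258, 184 and 319 in Chinese Simmental libraries (1.58 ± 0.42, adjusted p = 0.00947). LBH, a regulator first described in limb bud and heart, had 43380.3, 47001 and 42475 in Angus libraries, against 18626, 19954 and 15287 in Chinese Simmental libraries (1.30 ± 0.36, adjusted p = 0.0103). LBH was even within each breed, while RUNX1T1 had Chinese Simmental replicate 1 well above the other two (log2 fold change 2.59 without it). HLTF, a helicase-like factor of DNA damage tolerance, averaged 6836 ± 1819.9 in Angus and 2915 ± 847 in Chinese Simmental (1.23 ± 0.39), and the call went without Angus replicate 1 (0.99). BRIP1, a DNA repair helicase, had 169, 146 and 156 in Angus libraries, against 64.1, 74.2 and 69.9 in Chinese Simmental libraries. Although its libraries lay close within each breed, its call (1.17 ± 0.47) was lost with the replicate block (1.17) and without any 1 of the 6 libraries, where the log2 fold change was 1.12 to 1.22.

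On the Chinese Simmental side of these nuclear proteins, NACC2, a repressor with a BTB domain, had 347, 28.7 and 117 normalised counts in Angus libraries, against 2044, 897 and 1626 in Chinese Simmental libraries. The difference of -3.21 ± 0.80 on the log2 scale was -4.37 without Angus replicate 1, the highest of its breed by far. SBNO2, a macrophage corepressor induced by interleukin 10, had 10087, 8313 and 11150.5 in Angus libraries, against 21344, 64715 and 52139.8 in Chinese Simmental libraries (-2.23 ± 0.48, adjusted p = 0.00494). DACH1, a homologue of the fly gene dachshund, was uneven in both breeds, with 6.85, 12.5 and 66.0 in Angus libraries, against 22.1, 261 and 515 in Chinese Simmental libraries. Its log2 fold change of -3.22 ± 1.14 was -4.78 without Angus replicate 3, and was not past the threshold without Angus replicate 1 (-2.75) or 2 (-2.87) or Chinese Simmental replicate 3 (-2.31). Of 3 RNA-binding proteins CAPRIN2 and ZCCHC11 were higher in Angus, and CPEB3 was higher in Chinese Simmental but turned under the other 3 scalings. ZCCHC11, a terminal uridylyltransferase that acts on let-7 precursors, had 6764, 6901 and 5459 in Angus libraries, against 2702, 2205 and 2277 in Chinese Simmental libraries (1.41 ± 0.33, adjusted p = 0.00643).

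Within Chinese Simmental, replicate 1 stood lower than replicates 2 and 3 for most members. It was the lowest library of that breed for 69.2% of the 133 members, against 52.1% of all listed genes, and for 80.4% of the 102 members higher in Chinese Simmental, against 62.2% of all listed genes higher there. Over these 102 members the ratio of replicate 1 to the mean of the other two had a median of 0.527, against 0.614 over the 1531 listed genes of that direction. It was 0.0569 for DACH1, 0.107 for EGR2, 0.122 for CEBPB and 0.157 for PRDM1. Replicate 1 lay within the Angus range for DACH1, CEBPB and PRDM1, and above every Angus library for EGR2. The ratio was above 1 for 12 members, among them RAB7B (4.23), CMKLR1 (2.59), ID1 (2.15), FOXS1 (1.86), TFEC (1.75), NACC2, ASCL2, ACOD1, MITF and ASPH. Neutrophil markers had a median ratio of 0.601, with 7 of 8 below 1, and monocyte and macrophage markers one of 0.832, with 5 of 9 below 1, while B cell markers had one of 1.38. Chinese Simmental replicate 3 was the highest library of its breed for 65.7% of the 102 members, near the 64.8% of all listed genes of that direction, and exceeded the mean of the other two 10.1-fold for FOSB, 8.72-fold for EGR2 and 8.66-fold for FOS. In Angus, replicate 2 was the lowest library for 64.7% of the 102 members, against 54.5% of all listed genes of that direction. No test was made of these shares, and the part of these libraries' cell content in them was not tested.

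**Figure D5:**
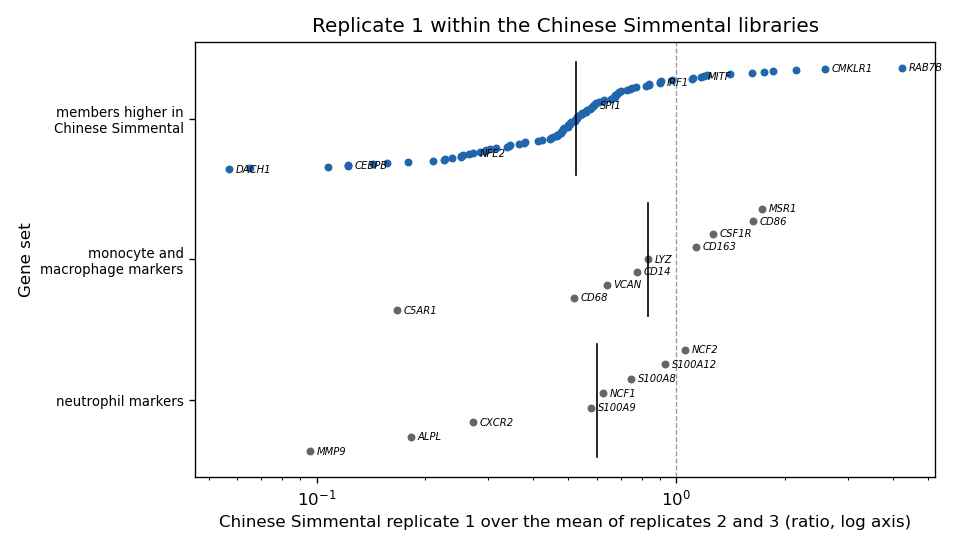
Ratio of Chinese Simmental replicate 1 to the mean of replicates 2 and 3 (log axis), 1 point per gene, for the 102 members higher in Chinese Simmental, 9 monocyte and macrophage markers and 8 neutrophil markers, with a vertical bar at each median and a dashed line at 1. Members spread from 0.0569 (DACH1) to 4.23 (RAB7B) around a median of 0.527, below the medians of 0.832 and 0.601 of the marker sets.

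By the ratio of means, the smallest differences in the set lay near the lower bound of the authors' selection. LPIN2, a phosphatidate phosphatase of fat synthesis that also acts in the nucleus, had 2843, 2705 and 3356 normalised counts in Angus libraries, against 5047, 6533 and 6861 in Chinese Simmental libraries, a ratio of means of 2.07. Its log2 fold change of -1.05 ± 0.33 turned to higher in Angus under the other 3 scalings, and the call went without Angus replicate 1 (-1.02) or 2 (-0.99). ATAD2, a bromodomain ATPase of dividing cells, had 2951, 2528 and 2275 in Angus libraries, against 1169, 1344 and 1193 in Chinese Simmental libraries, a ratio of 2.09. Its call (1.06 ± 0.34) was lost without Angus replicate 1 (0.96) or 2 (1.08). FOXO3 came next, at 2.10. The authors' own log2 fold changes, Chinese Simmental over Angus, were 1.031 for LPIN2, -1.047 for ATAD2 and 1.035 for FOXO3. By them TIRAP (1.035) and CPEB3 (1.042) also lay nearer the bound than ATAD2. Genes just outside the selection were not analysed here.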

How the data were processed

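Total RNA of 6 longissimus dorsi samples was sequenced, and groups follow the breed named in each title. The submitters' processing notes name the aligner HISAT2 and the build ARS-UCD1.2. Which tool, strand setting and annotation served to count reads is not given in the sources used here, so reads of overlapping genes and close paralogs may be split or shared. The deposited table holds, per the file headers, whole-number counts and FPKM per gene and library, the authors' group means of scaled counts (a normalised signal). Beside these the deposited comparison gives a log2 fold change of Chinese Simmental over Angus, a p-value and its adjusted value. Every listed gene had passed the authors' selection (smallest absolute log2 fold change 1.00, largest adjusted p 0.0492 in the authors' deposited table), and 1 blank line was left out. Depth over genes outside the table is unknown.

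Size factors solved from the deposited group means (1.17, 0.801 and 1.02 for Angus replicates 1 to 3, 0.951, 1.09 and 1.03 for Chinese Simmental replicates 1 to 3) left relative residuals of at most 1.52e-09 and were used for scaling, since factors computed over selected genes would centre their fold changes. Normalised counts are counts divided by these factors. The counts of all listed genes went into edgeR 4.0.16 (R 4.3.3), whose quasi-likelihood functions glmQLFit and glmQLFTest were run after filterByExpr at a minimum count of 10, breed as the only term, Angus over Chinese Simmental, with Benjamini-Hochberg adjustment over the 1989 genes that passed and a threshold of 0.05. The standard error is the absolute log2 fold change over the square root of F. The test was tried on simulated data first. Alternatives were TMM, RLE and upper quartile factors, no filter, DESeq2 1.42.0, the replicate number as a block, limma 3.58.1 on log2(FPKM + 1) and log2(FPKM + 0.1), narrower choices of members and leaving out each library. Libraries with the same replicate number deviated together (correlations 0.256, 0.142 and 0.230), a pairing that comes from the data and that the labels do not explain.

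The members, the gene lists and the family lists were chosen with earlier results of these data known. The naming rule took up to 4 members per family or role list by smallest p, the 10 largest differences in each direction with no overlap and a mean FPKM of at least 1 in the higher breed, the 8 members outside every family list with the highest mean FPKM, and the 3 smallest ratios of means; it named 77 members. The others, and the subgroups of the 52 members outside the family lists, were chosen after their values were seen. Member names matched RefSeq symbols for 132 and a synonym for 1; no coordinates are printed, since the RefSeq table is of assembly ARS-UCD2.0. Values of a few members are not reported here. FOXS1 and ATXN1 share their counts with provisional locus names. Groups of 3 against 3 allow no exact permutation p below 0.1, so none was run.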

Additional observations from a re-analysis of the deposited data

How the results depend on the processing

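The calls, 31 toward Angus and 102 toward Chinese Simmental, were as many without the count filter, with DESeq2 and with names of identical counts used once. These checks left little room for change. All 133 members had passed the filter, and the names that share counts with FOXS1 and ATXN1 were not members. With the same size factors DESeq2 called all 2040 listed genes. Factors computed over the listed genes alone centre selected genes by construction. With TMM, RLE and upper quartile factors 11, 11 and 12 members were called higher in Chinese Simmental, against 261, 274 and 289 of all listed genes. The share of members with a negative fold change was 53.4%, 52.6% and 54.9%. The median log2 fold change of the members was -0.13, -0.11 and -0.16. Breeds did not overlap for 56, 61 and 59 members, which was not counted over all listed genes. Over all 133 members, 31 turned to higher in Angus with TMM, 32 with RLE and 29 with upper quartile factors. Of the 75 members that the naming rule took and whose values are reported, 12 turned with TMM: ARRB2 (0.0653), E2F2 (0.0468), FOXO3 (0.32), FOXS1 (0.13), HMGB2 (0.20), KLF13 (0.24), LPIN2 (0.30), NFKBIZ (0.25), PICALM (0.23), STAT3 (0.0645), STAT5B (0.27) and TLE3 (0.18). With RLE factors the values were 0.0632 (ARRB2), 0.0611 (E2F2), 0.32 (FOXO3), 0.11 (FOXS1), 0.22 (HMGB2), 0.24 (KLF13), 0.30 (LPIN2), 0.28 (NFKBIZ), 0.23 (PICALM), 0.0721 (STAT3), 0.28 (STAT5B) and 0.19 (TLE3), and ARID5A was at 0.00227. With upper quartile factors they were 0.0296 (ARRB2), 0.0216 (E2F2), 0.29 (FOXO3), 0.0918 (FOXS1), 0.17 (HMGB2), 0.20 (KLF13), 0.26 (LPIN2), 0.23 (NFKBIZ), 0.19 (PICALM), 0.0334 (STAT3), 0.24 (STAT5B) and 0.15 (TLE3).

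The replicate block gave 30 calls higher in Angus and 101 in Chinese Simmental and a median log2 fold change of -1.44; BRIP1 (1.17) and MSC (-1.77) lost their calls and no other member did. With limma on log2(FPKM + 1) the median was -1.09, a scale on which low values are pulled toward 0. Taking only members with the transcription factor activity term left 10 calls higher in Angus, 44 (81.5%) in Chinese Simmental and 49 members without overlap. Taking only DNA-binding families left 10, 55 (84.6%) and 59. These counts are lower since fewer genes were counted. The medians were -1.94 and -1.88, against -1.52 over all members, whose share higher in Chinese Simmental was 76.7%. What lies behind the changed shares and medians was not tested. Leaving out 1 library gave 21 to 28 member calls higher in Angus and 66 to 99 higher in Chinese Simmental (66 without Angus replicate 2, the cause was not tested). Over all listed genes the calls numbered 291 to 466 and 1059 to 1423, both likewise lowest without Angus replicate 2. Medians over the members were -1.64 to -1.21, and their share higher in Chinese Simmental was 76.7% each time. Members without overlap numbered 121 to 133, a count that leaving out a library can only keep or raise, so its lower end was fixed beforehand. It was not made over all listed genes. Of the 133 members 78 kept their call in all 6 such fits and 55 lost it in at least 1. With 3 libraries per breed, differences near the selection's lower bound depend on single libraries.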
